A study of Mus musculus with 60 samples.

Results

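The 5 inbred mouse strains FVB/NJ, SWR/J, SJL/J, NOD/LtJ and NOR/LtJ, which descend from Swiss stock, were taken by their strain label from a panel of 30 strains, which gave 10 of 60 arrays. Each strain was represented by 1 array of cortex from males given fluoxetine and 1 array of cortex from males given water, so the 5 members are 5 within-strain differences, fluoxetine minus water. Fluoxetine was taken up with the drinking water at a daily dose of 18 mg/kg for 21 days, against 0 mg/kg for the water groups, and the labels give an age of 10 to 11 weeks. The RNA on each array was pooled from 3 mice of one strain and treatment, so no animal was measured on its own and a difference within 1 strain has no replicate. Both groups of a strain were of the same inbred strain, the labels name no transgene or engineered allele, and the mice had been tested in a tail suspension and an open field apparatus before tissue was taken. The 25 strains of other ancestry, with 50 arrays, served for comparison. The question was which cortical genes differed with chronic fluoxetine in strains that share ancestry, and whether those differences set them apart from the other strains.

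Fluoxetine is a selective inhibitor of the serotonin transporter, the protein that carries released serotonin back into the axon, and it is used as an antidepressant that acts over weeks. It is also a lipophilic weak base that accumulates in acidic organelles such as lysosomes. Among the strains, FVB/NJ is the usual background for transgenic mice, SJL/J is used in models of autoimmune encephalomyelitis, and NOD/LtJ develops autoimmune diabetes. NOR/LtJ is a diabetes-resistant relative of NOD/LtJ that carries part of its genome from C57BLKS/J, a strain counted here among the other 25. The brain makes its own cholesterol, because lipoprotein cholesterol does not cross the blood-brain barrier. Its rate of synthesis is set by the transcription factor SREBP-2, which is held in the endoplasmic reticulum by Scap and Insig proteins while sterols are plentiful and moves to the nucleus when they run short.

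Values are GCRMA intensities, a measure of hybridisation brightness per probe set with a floor of 4.21. Differences are on the log2 scale, so that 1 is a doubling, and an intensity can be compared between arrays for one gene but not between genes. Median intensity per array lay between 39.5 and 42.2 in these 10 arrays, and both arrays of a strain correlated at 0.996 to 0.997 over genes. The within-strain difference in the 3′ minus 5′ signal of Actb, a sign of RNA integrity, averaged 0.034 in the Swiss-derived and -0.0086 in the other strains (exact permutation over strains, two-sided p = 0.444), and that of Gapdh 0.025 and -0.0054 (exact permutation p = 0.316). Cortex markers were well measured: of those on the array, 8 of 8 for upper-layer neurons, 9 of 10 for deep-layer neurons and 12 of 12 for astrocytes passed the filter on low values. Of markers of other sources, 0 of 7 for hypothalamus and 0 of 3 for red blood cells passed, whereas 8 of 10 for thalamus, 9 of 11 for striatum and 8 of 11 for olfactory bulb and neuroblasts did. In bulk tissue, fewer cells of a type and less RNA per cell cannot be told apart.

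In the Swiss-derived strains 0 of 11886 genes (0%) passed an adjusted p of 0.05 for fluoxetine against water, and the lowest adjusted p was 0.954 (limma with Benjamini-Hochberg adjustment, n = 5 strains). Before adjustment, p lay under 0.05 for 208 genes of higher level in fluoxetine cortex (1.75% of the genes tested) and for 328 of lower level (2.76%). A level was higher with fluoxetine in all 5 strains for 248 genes (2.09%) and lower in all 5 for 401 (3.37%). Over all genes the median difference was -0.0033, with 47.7% of genes higher and 52.2% lower. No single gene below is therefore a called change. Of the gene lists, cholesterol synthesis had the most members lower in all 5 strains, and the strains differed most in a set of vascular and meningeal genes that were high with fluoxetine in SWR/J and NOD/LtJ.

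Cholesterol synthesis genes were mostly lower with fluoxetine in these strains: of 25 genes on the list 21 passed the filter, 18 had a negative mean difference, and 11 were lower in all 5 strains, where 3.37% of all genes were. The median over the 21 genes was -0.12, against -0.0033 over all genes, and 11 of the 21 had an unadjusted p under 0.05 in the lower direction, against 2.76% of all genes. The list median was -0.14 in FVB/NJ, -0.034 in SWR/J, -0.10 in SJL/J, -0.15 in NOD/LtJ and -0.15 in NOR/LtJ, so it was below 0 in each strain. Markers of myelin and oligodendrocytes had a median of similar size, -0.13, with 12 of 12 means negative, and by strain -0.39 in FVB/NJ, 0.093 in SWR/J, -0.21 in SJL/J, -0.12 in NOD/LtJ and -0.003 in NOR/LtJ; their part in the cholesterol values was not tested. The list was chosen with a lower level over all 30 strains already known, so its direction here is not independent evidence, and 0 of its members passed after adjustment over all genes. The other 4 genes of the list were not analysed here.

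Promoters of the genes that were lower together are shown because SREBP-2 acts at them beside the factor NF-Y, which binds CCAAT boxes. In the RefSeq table of the GRCm38.p6 build, which gives 250 bases before to 50 after each gene's start, 18 of the 25 list genes were found. Searched on both strands, CCAAT was present in 16 of these 18 genes, against 37.4% of all promoters and 41.1% of all genes in the table. The 16 included genes that were not lower in every strain, such as Mvk, Ebp and Dhcr7, so the box did not set the lower genes apart. The sterol regulatory element TCACNCCAC was present in 1 of the 18, Hmgcs1, against 1.24% of all promoters and 1.44% of all genes. The E-box CACGTG was present in 5 of the 18, against 7.15% of all promoters and 8.09% of all genes. All 7 of the genes lower in 5 of 5 strains that the table held had a CCAAT box in the window, and the matches are a description of letters and not evidence of binding. The 150 bases before the start of 5 of them follow, 5′ to 3′ in the direction of the gene, with the CCAAT box (ATTGG on the other strand) and, in Hmgcs1, the sterol regulatory element in capitals.
Hmgcs1, chr13:119690201-119690350, plus strand: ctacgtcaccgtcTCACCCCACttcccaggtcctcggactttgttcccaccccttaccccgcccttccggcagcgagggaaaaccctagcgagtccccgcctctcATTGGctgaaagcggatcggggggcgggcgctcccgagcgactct
Idi1, chr13:8885456-8885605, plus strand: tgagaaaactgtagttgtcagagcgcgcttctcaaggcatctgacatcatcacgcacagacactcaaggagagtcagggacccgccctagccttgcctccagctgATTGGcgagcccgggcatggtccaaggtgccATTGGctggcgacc
Lss, chr10:76531455-76531604, plus strand: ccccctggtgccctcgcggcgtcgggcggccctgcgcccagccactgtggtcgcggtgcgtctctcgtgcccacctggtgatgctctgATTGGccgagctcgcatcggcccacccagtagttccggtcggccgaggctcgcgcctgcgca
Cyp51, chr5:4104698-4104847, minus strand: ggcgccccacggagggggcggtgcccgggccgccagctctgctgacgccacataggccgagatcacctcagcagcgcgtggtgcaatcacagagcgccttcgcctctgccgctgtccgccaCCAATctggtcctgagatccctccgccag
Msmo1, chr8:64733579-64733728, minus strand: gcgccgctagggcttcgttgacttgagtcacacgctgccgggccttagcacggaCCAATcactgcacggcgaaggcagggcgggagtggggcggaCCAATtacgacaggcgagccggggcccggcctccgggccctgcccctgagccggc

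Idi1 and Msmo1 each showed 2 boxes in these 150 bases and the other 3 genes 1 each. The window of Insig1 held a single CCAAT box that starts 216 bases before the start site, outside the stretch of that length.

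Insig1, which encodes the membrane protein that retains SREBP-2 in the endoplasmic reticulum and is itself a target of SREBP-2, had the largest mean difference of the list. With strains in the order FVB/NJ, SWR/J, SJL/J, NOD/LtJ and NOR/LtJ, which is kept below, its intensity was 1227, 1493, 1257, 955 and 1342 in fluoxetine arrays, against 1438, 1811, 1521, 1352 and 1597 in water arrays. The fluoxetine array was the lower one in each strain and the difference was -0.23, -0.28, -0.27, -0.50 and -0.25, a mean of -0.31 (SE 0.0495), or a change of -19.2% in level. NOD/LtJ stood apart from the other 4 strains with the lowest fluoxetine value of the 10 arrays. In the other 25 strains Insig1 averaged -0.086 (SD 0.196), lower in 18 of 25, and the Swiss-derived strains differed from them by -0.22 (SE 0.0895; limma adjusted p = 0.999).

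Among the early enzymes of the pathway, which build the isoprenoid units, Hmgcs1, Idi1 and Fdps were lower in each strain. Hmgcs1, the synthase that makes HMG-CoA from acetyl groups, read 10568, 12007, 10983, 9023 and 11618 in fluoxetine arrays and 12074, 13167, 12726, 11753 and 12372 in water arrays, with differences of -0.19, -0.13, -0.21, -0.38 and -0.091 and a mean of -0.20 (SE 0.0497). Idi1, the isomerase of the isoprenoid units, read 1756, 2465, 2044, 1699 and 2238 with fluoxetine, against 2102, 2655, 2403, 2164 and 2372 with water, a mean of -0.21 (SE 0.0495). For both genes NOD/LtJ had the largest difference and NOR/LtJ, its relative, the smallest. The mevalonate kinases and decarboxylase were less uniform: Mvd differed by -0.26, 0.062, 0.003, -0.25 and -0.37, below 0 in 3 strains, while Mvk (-0.017, SE 0.0756) and Pmvk (0.017, SE 0.0344) had means near 0 with strains on both sides. Fdps, the farnesyl diphosphate synthase, had intensities of 974, 1225, 989, 953 and 1008 in fluoxetine cortex and 1012, 1320.2, 1252, 1074 and 1189 in water cortex, a mean of -0.18 (SE 0.0498), and SJL/J had the largest difference.

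The sterol branch proper starts with squalene. Fdft1, squalene synthase, differed by -0.14, -0.00048, -0.062, -0.15 and -0.25, which counts as lower in each strain although the SWR/J value is close to 0. Sqle, the squalene epoxidase, read 943, 1239.8, 1084, 952 and 1026 in the fluoxetine arrays and 1252, 1254, 1303, 1186 and 1286 in the water arrays, a mean of -0.27 (SE 0.0609). The water arrays of all 5 strains lay in a narrow band for Sqle, and the fluoxetine arrays of the 4 strains other than SWR/J lay below every water array. Lss, the cyclase that forms lanosterol, the first sterol, read 565, 689.6, 534, 443 and 514 with fluoxetine and 622, 764, 605, 505 and 573 with water. Its differences of -0.14, -0.15, -0.18, -0.19 and -0.16 were the most even of the list, a mean of -0.16 (SE 0.0312). Lanosterol is then demethylated by Cyp51, which read 1049.6, 1463, 1400.0, 1087 and 1038 in fluoxetine arrays, against 1212, 1540.2, 1565, 1257 and 1172 in water arrays, a mean of -0.17 (SE 0.0361). The next demethylation steps belong to Msmo1, with differences of -0.23, -0.078, -0.28, -0.28 and -0.0021, and Nsdhl, with -0.054, -0.13, -0.034, -0.14 and -0.19; both were lower in 5 of 5 strains, with Msmo1 close to 0 in NOR/LtJ.

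The late steps were mixed. Hsd17b7, a reductase that acts with Nsdhl, differed by -0.14, -0.034, 0.037, -0.014 and -0.026, and Tm7sf2, a sterol reductase, by -0.051, 0.066, 0.084, -0.0079 and -0.12. Sc5d, the sterol desaturase, differed by -0.22, -0.0067, -0.25, 0.078 and -0.22, and Dhcr7, a reductase of the final steps, by -0.14, 0.17, 0.0061, -0.19 and -0.15, with the highest value of Dhcr7 in SWR/J. Ebp, the sterol isomerase, had the highest mean of the list: it read 497, 501, 497, 513 and 458 in fluoxetine arrays and 368, 492, 533, 475 and 456 in water arrays, and its mean of 0.096 (SE 0.0783) held 1 high strain, FVB/NJ, where the difference was 0.43. On the probe sets used the regulators were close to 0, at -0.045 (SE 0.0386) for Srebf2, which encodes SREBP-2, and 0.0063 (SE 0.0363) for Scap. Another probe set of Srebf2, about as bright, averaged -0.17 (SD 0.207) and was lower in 4 of 5 strains, with -0.49 in NOR/LtJ. Stard4, a cytosolic carrier of sterols, was lower in each strain, with 454, 559, 578, 512 and 534 in fluoxetine arrays, against 578, 627, 634, 519 and 584 in water arrays, a mean of -0.16 (SE 0.0522). The choice of 1 probe set per gene had left out 25 other probe sets of the same genes, of which 18 had a negative mean difference. Among these, 15 had a mean log2 intensity of at least 6 and covered 11 genes. Of the 15, 15 had a negative mean difference and 5 were lower in all 5 strains. They read the same RNA on the same arrays, and the share over all comparable probe sets was not computed.

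**Figure D1:**
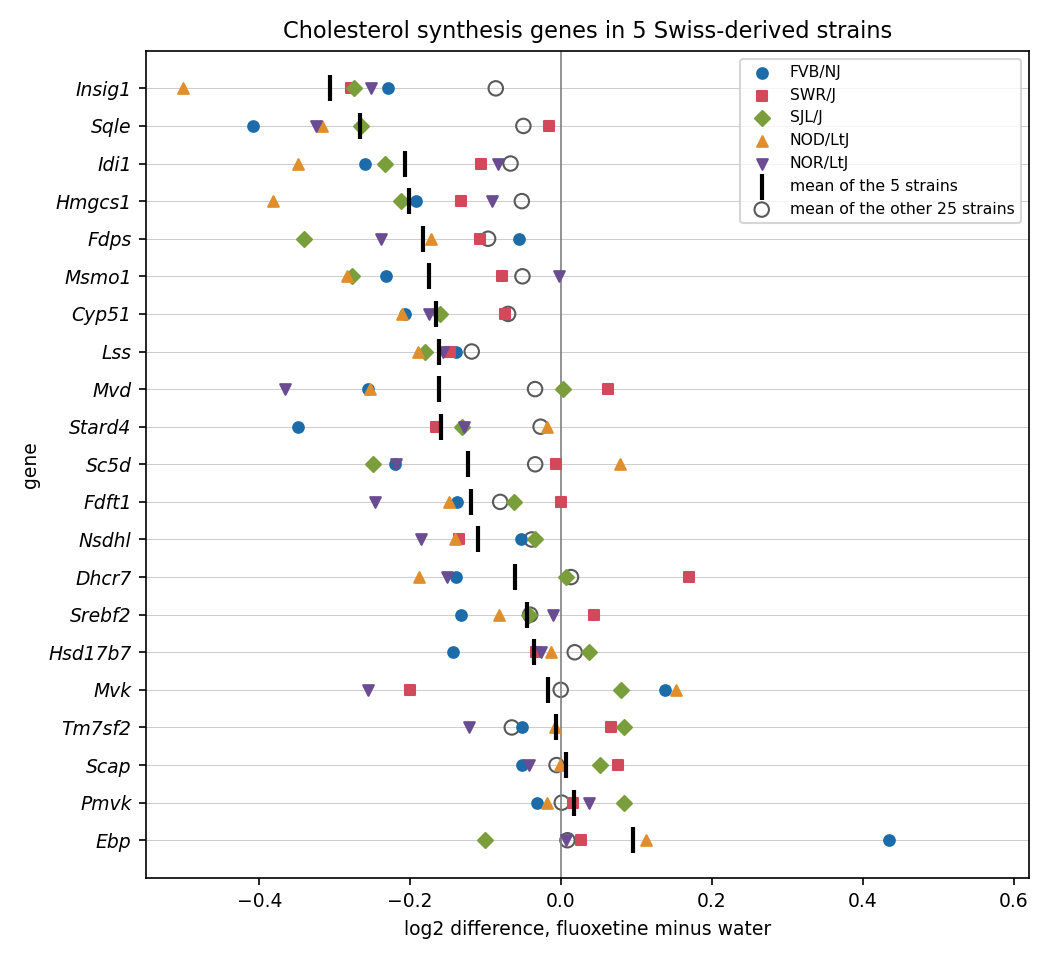
Differences on the log2 scale, fluoxetine minus water, of the 21 measured cholesterol synthesis genes. Each coloured symbol is 1 strain without replicate, the black bar is the mean of the 5 Swiss-derived strains and the open circle the mean of the other 25; 18 of 21 black bars lie left of 0, from Insig1 at -0.31 down the page to Ebp at 0.096.

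**Figure D2:**
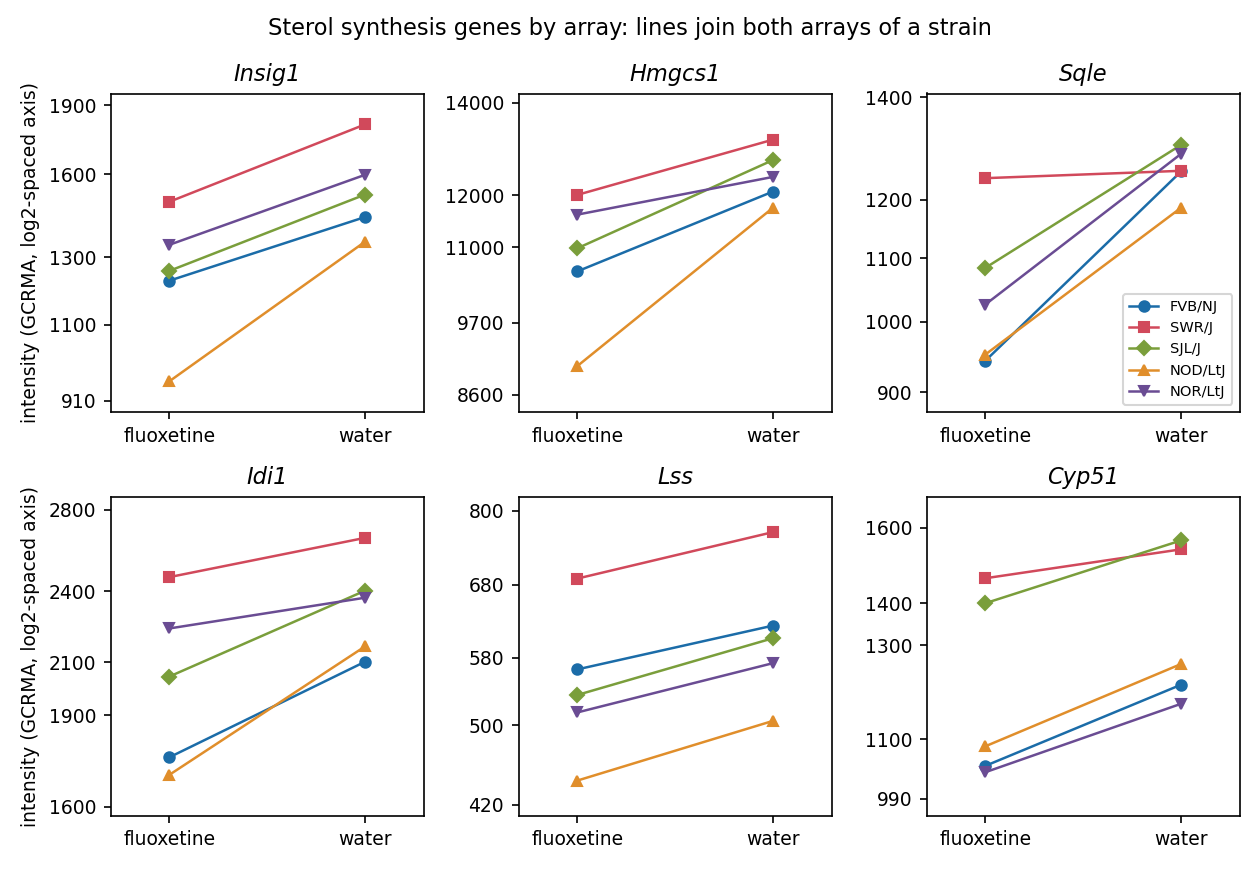
GCRMA intensity on a log2-spaced axis for 6 genes, with the fluoxetine array on the left and the water array on the right of each panel; a line joins both arrays of a strain. All 30 lines slope up to the water array, and the line of SWR/J for Sqle is nearly flat.

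Set against the other 25 strains, the Swiss-derived strains were lower for 17 of the 21 genes, with a median difference between the families of -0.074. The other strains also tended lower, with a median over the list of -0.041, 17 of 21 members below 0 and a list median below 0 in 21 of 25 strains, from -0.17 to 0.32. The 5 Swiss-derived values lay inside that range. No member differed between the families after adjustment (lowest limma adjusted p over all genes = 0.999), and the sizes were -0.22 (SE 0.103) for Sqle, -0.15 (SE 0.0803) for Hmgcs1 and -0.044 (SE 0.0832) for Lss.

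Neighbouring lipid pathways were described with a pair of lists chosen after these data were seen. Of 14 measured genes of fatty acid synthesis, which depend on the related factor SREBP-1, 13 had a negative mean but the median was only -0.035. Acaca, the acetyl-CoA carboxylase that commits carbon to fatty acids, read 871, 805, 844, 918 and 792 in fluoxetine arrays and 973, 819, 889, 1017 and 949.6 in water arrays, lower in 5 of 5 strains, a mean of -0.13 (SE 0.044). The desaturase gene Scd1 differed by -0.38, 0.011, -0.096, -0.27 and -0.16, and Fads2 by -0.31, -0.15, -0.42, -0.067 and 0.084. FVB/NJ had the lowest value of Scd1 and SJL/J that of Fads2, and Fasn itself averaged -0.076 (SE 0.06). Of 12 measured genes of sterol efflux and storage 10 had a positive mean, with a median of 0.037, against 0.027 in the other 25 strains. By strain this list median was -0.065 in FVB/NJ, 0.11 in SWR/J, -0.021 in SJL/J, 0.090 in NOD/LtJ and -0.0078 in NOR/LtJ. It was thus above 0 in SWR/J and NOD/LtJ only. Abcg1, a sterol exporter induced when sterols are plentiful, averaged 0.077 (SE 0.0345). It was the 1 of the 12 that was higher in 5 of 5 strains, where 2.09% of all genes were.

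Chaperones of the endoplasmic reticulum were mostly higher with fluoxetine, apart from NOR/LtJ. Of 20 measured genes of the endoplasmic reticulum stress list 14 were higher, 5 of them at an unadjusted p under 0.05, against 1.75% of all genes, and 2 were higher in all 5 strains, against 2.09%. The median was 0.049, with 0.042 in FVB/NJ, 0.086 in SWR/J, 0.057 in SJL/J, 0.083 in NOD/LtJ and -0.043 in NOR/LtJ, and the other 25 strains had a median of 0.039. Hspa5, the master chaperone BiP, read 9184, 9377, 11541, 10467 and 8264 in fluoxetine arrays, against 8992, 7989, 10094, 8257 and 8346 in water arrays, a mean of 0.16 (SE 0.0602). SWR/J, SJL/J and NOD/LtJ had clearly higher fluoxetine values, and both arrays of FVB/NJ and of NOR/LtJ were close. Sdf2l1, a cofactor of BiP, was higher in 5 of 5 strains, at 125, 113, 186, 189 and 116 with fluoxetine and 111, 93, 169, 143 and 109 with water, a mean of 0.21 (SE 0.0531). The secreted factor Manf averaged 0.14 (SE 0.0554), the chaperone genes Hyou1 and Calr 0.13 (SE 0.0519) and 0.10 (SE 0.0421). The sensors and transcription factors of the response were smaller, at 0.067 for Atf6, 0.051 for Xbp1, 0.046 for Ddit3 and -0.013 for Ern1. Among cytosolic heat shock genes 10 of 17 were higher, with a median of 0.022, and Hsph1 was higher in all 5 strains (mean 0.062, SE 0.0337). The other probe set of Hsph1, also bright, averaged 0.026, higher in 2 strains and lower in 3.

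Outside these lists, the genes with the smallest p among those that went the same way in all 5 strains were of mixed function. Rnf32, which encodes a RING finger protein, read 138, 145, 161, 159.8 and 137 in fluoxetine cortex and 121, 119, 143, 141 and 118 in water cortex, a mean of 0.21 (SE 0.0348), and the other 25 strains averaged 0.034. Cgnl1, a protein of cell junctions, read 142, 160.2, 141, 141 and 119 with fluoxetine, against 105, 109, 129.7, 97.3 and 95.4 with water, a mean of 0.39 (SE 0.0693). For Cgnl1 4 of the 5 fluoxetine arrays lay above every water array, the exception being NOR/LtJ. Pecam1, an adhesion molecule of endothelial cells, read 84.8, 108, 94, 141 and 116 in fluoxetine arrays and 71.6, 94, 84.8, 94 and 95.4 in water arrays, a mean of 0.29 (SE 0.0674). It was the 1 of 10 measured endothelial markers that was higher in all 5 strains; 6 of the 10 had a negative mean, and the list median was -0.0035, with -0.18 in FVB/NJ, 0.15 in SWR/J, 0.0052 in SJL/J, 0.21 in NOD/LtJ and 0.049 in NOR/LtJ. Cd68, a lysosomal protein of microglia and macrophages, differed by 0.089, 0.24, 0.14, 0.31 and 0.30, and the other strains averaged 0.21; of the 12 measured microglia markers 7 had a positive and 5 a negative mean. Also higher with fluoxetine in all 5 strains were Wnt5a, a secreted Wnt ligand (mean 0.20, SE 0.0398), Kcnk3, a potassium leak channel (mean 0.17, SE 0.0427), Padi2, a peptidylarginine deiminase (mean 0.29, SE 0.0709), and Cdk2ap2 (mean 0.17, SE 0.0326). The unnamed transcripts G530011O06Rik and A330048O09Rik averaged 0.29 (SE 0.0574) and 0.26 (SE 0.0579).

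On the lower side, Insig1 and Lss headed the genes of smallest p together with Dgkq, a diacylglycerol kinase, and Ccnq, a cyclin. Ccnq read 375, 396, 355, 402 and 358 in fluoxetine arrays, against 421, 435, 403, 459 and 404 in water arrays, and its differences stayed between -0.19 and -0.14 in the 5 strains. The other 25 strains averaged -0.0049 (SD 0.0957) for Ccnq, so the families differed by -0.17 (SE 0.0464), short of the threshold. Dgkq differed by -0.28, -0.37, -0.16, -0.16 and -0.36, and Piga, which starts the synthesis of GPI anchors, by -0.35, -0.25, -0.38, -0.11 and -0.26. Slc9a9, an exchanger of sodium and protons in endosomes, read 342, 283, 312, 442 and 535 with fluoxetine and 388, 380.3, 428, 611 and 599 with water, a mean of -0.34 (SE 0.0615), while its other bright probe set averaged -0.097, lower in 2 strains and higher in 2. Gabra3, a subunit of GABA-A receptors, read 3439, 3565, 3863, 3281 and 3305 in fluoxetine arrays, against 3922, 4121, 4270.0, 3829 and 4320.0 in water arrays, a mean of -0.23 (SE 0.0445), with the largest difference in NOR/LtJ. Armcx5 averaged -0.25 (SE 0.0504), Rdh11, a retinol dehydrogenase that is also a target of SREBP factors, -0.16 (SE 0.033), and 2810049E08Rik -0.34 (SE 0.0676). The other probe set of Rdh11, also bright, averaged -0.095, lower in 4 strains and higher in FVB/NJ, at 0.15.

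The serotonin system, which fluoxetine acts on, showed no common direction. Slc6a4, the serotonin transporter and target of the drug, lay at the floor of 4.21 in all 10 arrays and was not tested; its mRNA is known from raphe neurons of the brainstem. Of 11 measured genes of the list 5 had a higher and 6 a lower mean, with a median of -0.012. The receptor genes Htr1a and Htr2c averaged -0.051 (SE 0.0587) and -0.053 (SE 0.0646), with strains on both sides of 0. Htr1b spread widely, with 533, 527, 511, 247 and 181 in fluoxetine arrays and 443, 695, 488, 169 and 225 in water arrays, higher with fluoxetine in FVB/NJ, SJL/J and NOD/LtJ and lower in SWR/J and NOR/LtJ. Htr3a was dim and averaged -0.012 (SE 0.0637), and S100a10, a partner of serotonin receptors, 0.032 (SE 0.0547). The genes of serotonin synthesis and breakdown Ddc and Maob were lower in 5 of 5 strains, at -0.20, -0.0089, -0.61, -0.15 and -0.017 for Ddc and -0.23, -0.074, -0.081, -0.15 and -0.005 for Maob. Maoa, the oxidase that degrades serotonin most readily, differed by -0.029, 0.048, 0.049, 0.23 and -0.0045, higher in 3 strains and lower in 2 (mean 0.059, SE 0.0474). The other 25 strains averaged 0.025 for Maob, and the families differed by -0.13 (SE 0.0597; limma adjusted p = 0.999). In the catecholamine list, where 5 of 6 measured genes had a lower mean, Adra1b, an adrenergic receptor, averaged -0.25 (SE 0.0907) and the dopamine receptor gene Drd1 -0.16 (SE 0.0667). Adra1b was lower in all strains except NOR/LtJ, where both arrays were equal. Drd1 was lower in 5 of 5 strains on the probe set used, while its other probe set averaged -0.059, lower in 2 strains and higher in 3. Drd1 is also a marker of striatal neurons, whose list had 8 of 9 members lower and a median of -0.089; the part of striatal tissue in its value was not tested.

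Among neurotrophic genes 11 of 14 had a higher mean and 3 were higher in all 5 strains, where 2.09% of all genes were, with a median of 0.02. Bdnf, the neurotrophin most studied with antidepressants, read 670.1, 697, 1114, 1029 and 834 in fluoxetine arrays, against 735, 719.6, 905, 1228 and 945 in water arrays, lower in all strains except SJL/J, a mean of -0.063 (SE 0.0826). The other 25 strains averaged 0.41 (SD 0.766), higher in 14 and lower in 11, and the difference between the families was -0.47 (SE 0.334; limma adjusted p = 0.999). Its receptor gene Ntrk2 averaged 0.022 (SE 0.0403), and the secreted peptide gene Vgf 0.0086 (SE 0.0743), against 0.16 in the other strains. The 3 genes higher in all 5 strains were Inhba, an activin subunit induced by activity, at 0.15, 0.54, 0.82, 0.28 and 0.0085, Igf1, a growth factor, at 0.037, 0.20, 0.069, 0.16 and 0.022, and Creb1, a transcription factor activated by cAMP, at 0.097, 0.027, 0.07, 0.28 and 0.037. Igf1 and Creb1 averaged 0.097 (SE 0.041) and 0.10 (SE 0.0475). Another probe set of Igf1, about as bright, averaged 0.033, higher in 4 strains and lower in 1. A further bright probe set of Creb1 averaged 0.063, higher in 3 strains and lower in 2.

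On the probe sets used, activity-regulated genes shared no direction over the strains. Arc, an immediate early gene of active neurons, read 834, 1832, 1843, 1081 and 723 in fluoxetine arrays and 799, 982, 1572, 513 and 1231 in water arrays, a mean of 0.30 (SE 0.262). Its difference was 0.90 in SWR/J and 1.07 in NOD/LtJ, and -0.77 in NOR/LtJ. Fos went the same way in those 3 strains and was also lower in FVB/NJ, at -0.55, 0.64, -0.034, 0.50 and -0.72, and Egr1 had -0.27, 0.35, 0.26, 0.11 and -0.16. The list median of immediate early genes was -0.065 in FVB/NJ, 0.16 in SWR/J, 0.16 in SJL/J, 0.17 in NOD/LtJ and -0.12 in NOR/LtJ. Of its 19 genes 14 were higher on average and none had one sign in all 5 strains on the probe set used. For Homer1 that probe set averaged 0.081, higher in 4 strains and lower in 1. Another bright probe set of Homer1 was higher in 5 of 5, with a mean of 0.35. The glucocorticoid-induced chaperone gene Fkbp5 averaged 0.081 (SE 0.0841), higher in all strains except SJL/J, and its list had a median of -0.014.

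Genes listed because of earlier results over the whole panel were set out strain by strain, which is a description because these strains are part of that panel. Tfrc, the transferrin receptor, read 5206, 4659, 5869, 6948 and 7078 in fluoxetine arrays, against 5682, 5676, 5944, 8514 and 7419 in water arrays, lower in 5 of 5, a mean of -0.16 (SE 0.0538). The clock repressor gene Ciart read 361, 238, 242, 324 and 435 with fluoxetine and 383, 288, 348, 501 and 461 with water, also lower in 5 of 5, a mean of -0.32 (SE 0.0932). The difference was largest in SJL/J and NOD/LtJ for Ciart and smallest in FVB/NJ and NOR/LtJ. Dbp, an output factor of the clock, was also lower in 5 of 5 strains, at -0.17, -0.074, -0.31, -0.41 and -0.0079, close to 0 in NOR/LtJ, whereas Per1 averaged -0.006 (SE 0.101) and Per2 -0.15 (SE 0.0734), which was 0.0065 as the mean over all its probe sets. The clock list as a whole had a median of -0.0086, with 12 of 20 genes lower. Mice were killed within a window of hours from morning to early afternoon, and the labels give no hour for a pool. Gnb4, a G protein subunit, was lower in 5 of 5 strains (mean -0.098, SE 0.0346), Zfp945 in 4 of 5 (mean -0.14, SE 0.0601) and Sh3d19 in 3 of 5, at -0.29, -0.20, -0.30, 0.23 and 0.058; the mean of Gnb4 over all its probe sets was 0.062. Spata13 was higher in 4 of 5 strains and equal in FVB/NJ (mean 0.26, SE 0.0815), and Nefh, the neurofilament heavy chain, higher in 4 of 5 (mean 0.11, SE 0.0403).

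Myelin genes were lower on average but not in every strain. All 12 measured genes of the myelin and oligodendrocyte list had a negative mean, with a median of -0.13, against -0.19 in the other 25 strains, and 1 of the 12 (Cldn11) was lower in all 5 strains, where 3.37% of all genes were. By strain the list median was -0.39 in FVB/NJ, 0.093 in SWR/J, -0.21 in SJL/J, -0.12 in NOD/LtJ and -0.003 in NOR/LtJ. Mal, a proteolipid of compact myelin, read 2046, 2864, 1811, 2314 and 2134 in fluoxetine arrays and 3383, 2624, 2324, 3094 and 2039 in water arrays. The water array of FVB/NJ was the highest of the 10 and the groups overlapped, with a mean difference of -0.26 (SE 0.13). Mobp, a protein of the myelin sheath, averaged -0.27 (SE 0.0934), Cldn11, its tight junction protein, -0.24 (SE 0.0814), and Mbp, the basic protein, -0.062 (SE 0.0477). FVB/NJ weighed most: without it the mean was -0.15 for Mal and -0.022 for Mbp. Markers of oligodendrocyte precursors had a median of -0.034, with 7 of 9 lower, and by strain -0.17 in FVB/NJ, 0.087 in SWR/J, -0.056 in SJL/J, -0.0037 in NOD/LtJ and 0.011 in NOR/LtJ; Olig2, a lineage factor, was the 1 of the 9 that was higher in all 5 strains, with a mean of 0.057 (SE 0.04), against -0.10 in the other 25. The summed intensity of the 12 myelin and oligodendrocyte markers was 45356 to 54348 in fluoxetine arrays and 49662 to 56564 in water arrays, with none at the floor, and the part of cell content in these values was not tested.

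**Figure D3:**
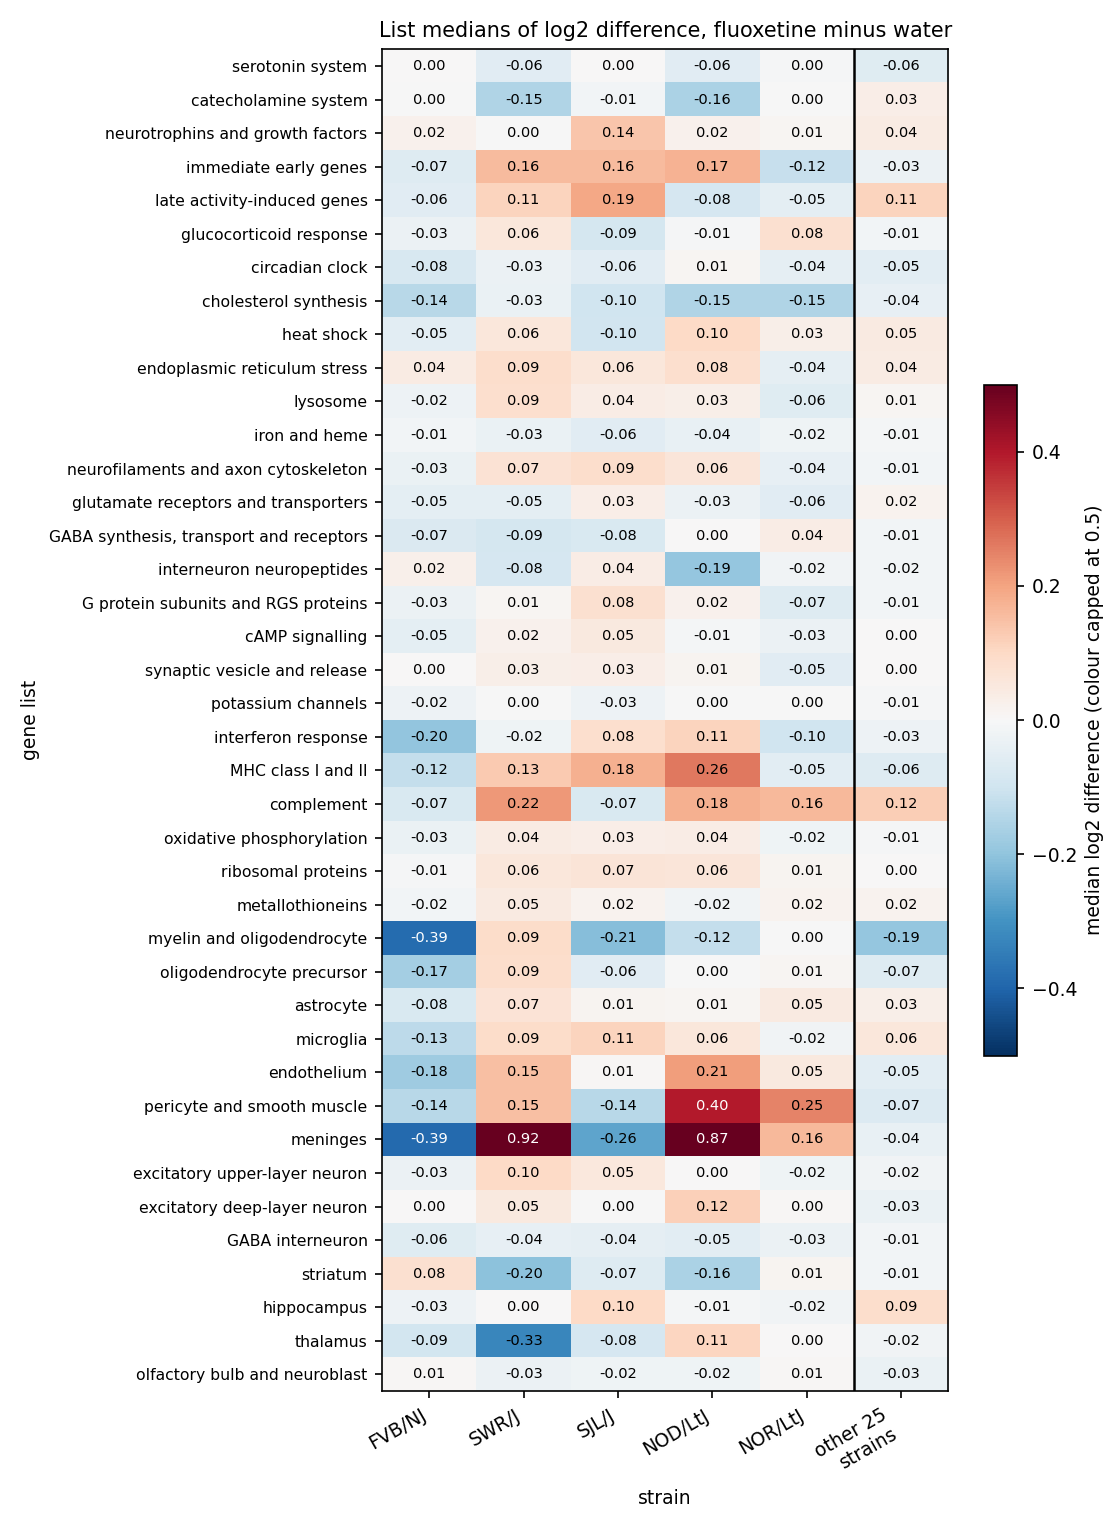
Median log2 difference, fluoxetine minus water, over the measured genes of each list with at least 5 of them, by strain, with the 5 Swiss-derived strains left of the line and the same over the mean differences of the other 25 right of it. Red is higher and blue lower with fluoxetine, and colour stops at 0.5; cholesterol synthesis is blue in all 5 strains, and meninges runs from -0.39 in FVB/NJ to 0.92 in SWR/J.

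The widest contrast between the strains lay in genes of the vessel wall and the meninges, which were high with fluoxetine in SWR/J and NOD/LtJ and low in FVB/NJ and SJL/J. The 10 meningeal markers had list medians of -0.39 in FVB/NJ, 0.92 in SWR/J, -0.26 in SJL/J, 0.87 in NOD/LtJ and 0.16 in NOR/LtJ. In the other 25 strains the median of this list ran from -1.19 to 1.11, a range that holds all 5 values. The 8 measured markers of pericytes and smooth muscle had list medians of -0.14 in FVB/NJ, 0.15 in SWR/J, -0.14 in SJL/J, 0.40 in NOD/LtJ and 0.25 in NOR/LtJ, against -0.54 to 0.34 in the other 25 strains. The summed intensity of all 9 such markers on the array, whether or not they passed the filter, was 10876 to 16201 in fluoxetine arrays and 10804 to 13428 in water arrays. Col3a1, a collagen of fibroblasts, read 207, 455, 148, 328 and 209.6 in fluoxetine arrays, against 248, 133, 247, 121 and 157 in water arrays. Its differences were -0.26, 1.77, -0.74, 1.43 and 0.42, and those of Lum, a proteoglycan of the same cells, -0.71, 1.42, -0.28, 1.41 and 0.67. Tagln, a contractile protein of smooth muscle, read 346, 973, 299, 751 and 715 with fluoxetine and 452, 372, 345, 281 and 343 with water. Here NOR/LtJ went with SWR/J and NOD/LtJ, as it did for Acta2, smooth muscle actin (-0.071, 1.0, -0.57, 1.39 and 0.92), and Myh11, smooth muscle myosin (-0.49, 0.89, -0.66, 1.22 and 1.08). The water arrays of the 5 strains were closer together for Tagln, Acta2 and Myh11 than the fluoxetine arrays were. Markers of pericytes proper differed less, with means of -0.039 (SE 0.0364) for Rgs5 and 0.084 (SE 0.0706) for Pdgfrb, and Acta2, Tagln and Myh11 held the largest values of the list.

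The summed intensity of the 10 meningeal markers, none at the floor, was 22009, 22787, 22325, 26140.2 and 20623 in fluoxetine arrays and 25646, 17793, 23902, 19533 and 20688 in water arrays. It was higher with fluoxetine in SWR/J and NOD/LtJ, lower in FVB/NJ and SJL/J and about equal in NOR/LtJ. Ttr, a secreted product of the choroid plexus, swung most of all listed genes, at 180.1, 71.3, 2369.7, 39.6 and 19.9 in fluoxetine arrays and 121, 304, 198, 80.9 and 108 in water arrays. Of the other choroid plexus markers Aqp1, Kcne2, Slc4a5 and Otx2 were at the floor, and Ttr was high in the fluoxetine array of SJL/J, where the meningeal markers were low. How much tissue from the brain surface each pool held was not tested. Over all genes the differences of SWR/J and NOD/LtJ correlated at r = 0.32, those of SJL/J and NOR/LtJ at -0.18, and NOD/LtJ and NOR/LtJ, the close relatives, at 0.026; the other 7 pairs of strains lay between -0.11 and 0.024. These are correlations across genes, which are not independent replicates, and the strains of a pair share no array.

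**Figure D4:**
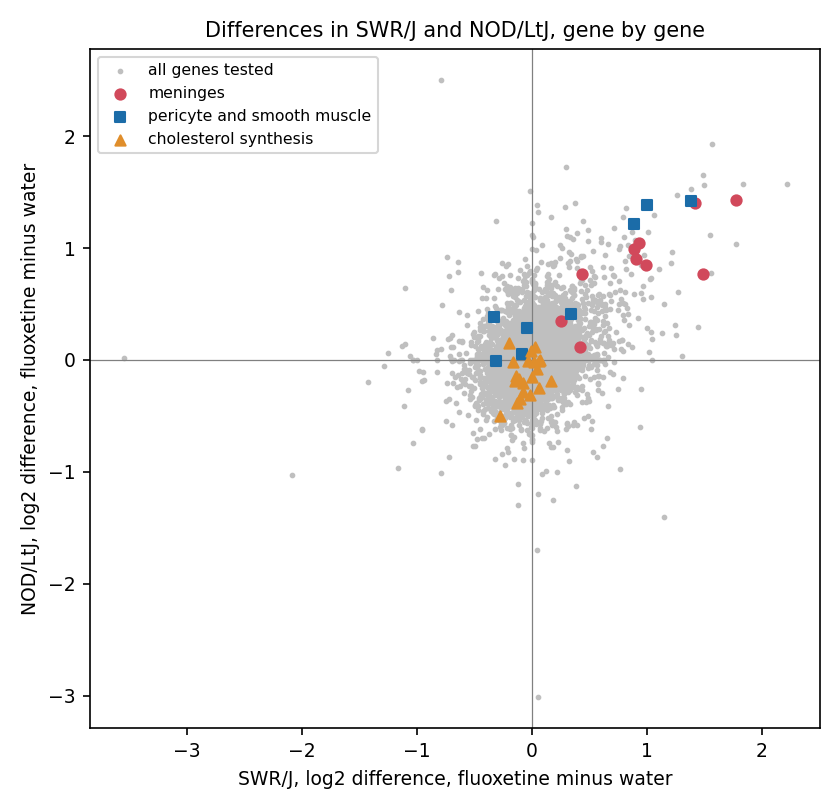
Each point is a gene, with its log2 difference, fluoxetine minus water, in SWR/J on the horizontal and in NOD/LtJ on the vertical axis; grey points are all 11886 genes tested. All 10 meningeal markers and the smooth muscle genes Acta2, Tagln and Myh11 lie at the upper right, where both strains are higher, and most cholesterol synthesis genes lie below 0 on the NOD/LtJ axis.

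Leaving out both SWR/J and NOD/LtJ was a step added once the meningeal values were known. It gave a cholesterol list median of -0.16, with 13 of 21 genes lower in the other 3 strains. One sign in 3 strains is a looser rule than in 5, and the share of all genes lower in those 3 was not computed. The count of 13 is therefore not comparable with that over 5 strains. Over all 5 strains the list median was -0.12; of the 2 strains left out SWR/J had -0.034 and NOD/LtJ -0.15. NOR/LtJ, 1 of the 3 strains kept, was itself high for Acta2, Tagln and Myh11, and the part of meningeal and vessel content in the cholesterol values was not tested.

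Genes of antigen presentation were higher on average with fluoxetine. All 9 measured genes of MHC class I and II had a positive mean, with a median of 0.22, against -0.065 in the other 25 strains. That median is the mean of H2-Aa, a dim gene that differed by -0.36, 0.30, 0.18, 1.72 and -0.72. The 5 strain medians of the list averaged only 0.080 (SD 0.16). Of the 9 genes 1 was higher in all 5 strains, where 2.09% of all genes were. By strain the list median was -0.12 in FVB/NJ, 0.13 in SWR/J, 0.18 in SJL/J, 0.26 in NOD/LtJ and -0.054 in NOR/LtJ, so it was below 0 in FVB/NJ and NOR/LtJ. The interferon response list had 8 genes higher and 7 lower, with a median of 0.0076, and the complement list 6 higher and 1 lower, with a median of 0.075, against 0.12 in the other 25 strains. The MHC gene higher in all 5 strains was H2-Ab1, a chain of MHC class II, which read 24.8, 40.9, 21.7, 35.8 and 28.5 in fluoxetine arrays, against 18.7, 18.7, 13.5, 30.3 and 26 in water arrays, a mean of 0.52 (SE 0.145). Its level was low, and the groups overlapped. Cd74, the invariant chain that accompanies class II molecules, read 129.8, 205, 321, 237 and 144 with fluoxetine and 141, 84.9, 131, 156 and 150.1 with water. It was more than doubled in SWR/J and SJL/J, higher in NOD/LtJ, and close to equal in FVB/NJ and NOR/LtJ, a mean of 0.60 (SE 0.245). H2-Aa, the partner chain, was dim, and on the probe set used it was high in the NOD/LtJ fluoxetine array alone, at 41.1, against 12.5 in its water array; another, dimmer probe set was higher in 4 of 5 strains, with a mean of 0.86. The microglia markers had a median of 0.033 and a summed intensity of 7126 to 9917 in fluoxetine arrays and 7282 to 9614 in water arrays, with none at the floor, and the part of immune cells in the class II values was not tested. Class I was smaller, with means of 0.085 (SE 0.0561) for H2-K1 and 0.023 (SE 0.0652) for B2m.

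Other synaptic and metabolic lists had small medians. Of 24 measured glutamate receptors and transporters 17 were lower, with a median of -0.036, and Grm7, a presynaptic metabotropic receptor, was lower in 5 of 5 strains (mean -0.059, SE 0.0328). A dimmer probe set of Grm7 averaged 0.00089, lower in 2 strains and higher in 3. Kcnj3, a potassium channel opened by G protein coupled receptors, differed by -0.059, -0.20, -0.25, -0.31 and -0.067, with every fluoxetine array below every water array, and Unc13a, which primes synaptic vesicles, by -0.10, -0.19, -0.11, -0.093 and -0.057. Adcy8, an adenylyl cyclase driven by calcium, was lower in 5 of 5 strains, at -0.62, -0.33, -0.13, -0.002 and -0.013, with the large values in FVB/NJ and SWR/J. Of 16 measured ribosomal protein genes 12 were higher and 4 were higher in all 5 strains, against 2.09% of all genes, with a median of 0.04; Rps14, Rps19 and Rpl7 averaged 0.076, 0.067 and 0.056. Of 28 genes of oxidative phosphorylation 23 had a higher mean, with a median of 0.017. None of the 28 was higher in all 5 strains, against 2.09% of all genes. Lower in all 5 were 2 of them, Cycs and Uqcrc2, against 3.37% of all genes. By strain the list median was -0.034 in FVB/NJ, 0.041 in SWR/J, 0.035 in SJL/J, 0.038 in NOD/LtJ and -0.020 in NOR/LtJ. Interneuron peptides were lower in 11 of 15 cases, with Sst at a mean of -0.14 (SE 0.0525) and Vip at a mean of -0.087 (SE 0.0464). Lysosomal genes had a median of 0.015, with 16 of 26 higher and none of one sign in all 5 strains.

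Each strain also had differences of its own, which have no replicate and are given by size. At least a 2-fold difference was seen for 16 genes in FVB/NJ (0.135% of the genes tested), 51 in SWR/J (0.429%), 44 in SJL/J (0.37%), 63 in NOD/LtJ (0.53%) and 25 in NOR/LtJ (0.21%). SWR/J and NOD/LtJ had mostly higher genes, 36 and 51, against 15 and 12 lower, while FVB/NJ had 5 higher and 11 lower. Among genes with a log2 intensity of at least 6 in both arrays, 4 in each direction are described per strain. In FVB/NJ Cdkn1b, an inhibitor of the cell cycle, read 1726 in the fluoxetine array and 944 in the water array, a difference of 0.87, and Mxra7, Snhg3 and Lsm11 were higher by 0.74, 0.73 and 0.67. On the lower side in FVB/NJ were Cast, the inhibitor of calpain proteases (-1.0), Telo2 (-0.94), Sfxn2 (-0.81) and the meningeal GABA transporter gene Slc6a13 (-0.77). Other probe sets of Cast and Telo2 with a mean log2 intensity of at least 6 did not show this: that of Cast differed by 0.0056 in FVB/NJ and both of Telo2 by 0.055 and 0.15. Of the 40 values named within strains 11 had such a further probe set, and for 8 of these at least 1 of them had the same sign and at least 50% of the log2 difference; the exceptions were Cast, Telo2 and Polr1c.

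In SWR/J the highest values were those of Col3a1 (1.77), Ifitm1, an interferon-induced membrane protein (1.44), Tagln (1.39) and Tpm2, a tropomyosin of smooth muscle (1.38). Lower in SWR/J were Ttr (-2.09), Casp9, an initiator caspase that read 151 with fluoxetine and 331 with water, Tcf7l2, a Wnt effector of the thalamus (-1.04), and Dlg4, which encodes the postsynaptic scaffold of excitatory synapses (-0.94). The thalamus list had a median of -0.33 in SWR/J, and the part of thalamic tissue in the Tcf7l2 value was not tested. Dlg4 went the other way in SJL/J: its intensity was 839, 495, 1358, 827 and 786 in fluoxetine arrays and 859, 949, 675, 936 and 1355 in water arrays, and the groups overlapped. In SJL/J Ttr (3.58), Cd74 (1.30), Dlg4 (1.01) and the RNA-binding gene Raly (0.91) were highest. Lowest in SJL/J was Ddit4, a stress-induced inhibitor of mTOR signalling, at 220.0 in the fluoxetine array and 659.9 in the water array, a difference of -1.58, where the other 4 strains lay between -0.35 and 0.27. Dusp28, a phosphatase, and Erf, a repressor of the ETS family, followed in SJL/J at -1.31 and -1.16, and Fam171a2 at -1.10.

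In NOD/LtJ Tpm2 (1.53), Col3a1 (1.43) and Tagln (1.42), also the top of SWR/J, were joined by Polr1c, a subunit of RNA polymerases (1.39). The other probe set of Polr1c, about as bright, differed by -0.079 in NOD/LtJ. Lower in NOD/LtJ were Fxyd2, a regulator of the sodium pump (-1.13), Rbm45 (-1.0), Spink10 (-0.97) and Mreg (-0.84). Spink10 read 6.46, 18.3, 5.39, 74.7 and 62.4 in fluoxetine arrays, against 6.11, 10.7, 7.96, 147 and 153 in water arrays, so it was well measured in NOD/LtJ and NOR/LtJ only, and in both it was lower with fluoxetine. In NOR/LtJ Dusp28 (1.73) was highest, followed by Itga8, an integrin (1.52), Bgn, a matrix proteoglycan (1.11), and Myh11 (1.08). Dusp28 read 345, 289, 119, 362 and 368 with fluoxetine and 390.3, 312, 296, 361 and 111 with water: 1 fluoxetine array, that of SJL/J, and 1 water array, that of NOR/LtJ, were low, and the other 8 lay between 289 and 390.3. Lower in NOR/LtJ were Rian, an imprinted noncoding RNA (-1.32), Cntfr, the receptor of ciliary neurotrophic factor (-1.13), Raly (-1.11) and Xaf1 (-0.94). For Rian the water array of NOR/LtJ was the high one, at 5167, where the other 9 arrays lay between 1837 and 2854; its other 3 bright probe sets differed by 0.21, -1.06 and -0.15 there. Dusp28 and Raly were thus opposite in SJL/J and NOR/LtJ, the pair with the lowest correlation over genes.

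Against the other 25 strains 0 of 11886 genes (0%) differed in their response at an adjusted p of 0.05, the lowest adjusted p was 0.999, and 371 had an unadjusted p under 0.05 (limma, 5 against 25 strains). Foxp1, a forkhead transcription factor of cortical neurons, read 2587, 3421, 3442, 2328 and 2441 in the fluoxetine arrays of the Swiss-derived strains and 2325, 3193, 3109.5, 2255 and 2056 in their water arrays, higher in 5 of 5. It averaged 0.14 here and -0.058 (SD 0.0982) in the other strains, where 17 of 25 were lower, a difference of 0.20 (SE 0.049). Its other 7 probe sets with a mean log2 intensity of at least 6 averaged -0.0059 to 0.22 in the Swiss-derived strains, 6 of 7 above 0, and 0 of 7 were higher in all 5 strains. The transcription factor gene Ikzf2 differed between the families by 0.39 (SE 0.105), the transcripts 6820431F20Rik and A330048O09Rik by 0.42 (SE 0.103) and 0.36 (SE 0.0925). Eln, the elastin of arteries, had the largest size at 1.17 (SE 0.336), from values near the floor in water arrays, and its strain differences of -0.045, 1.49, 0.27, 1.65 and 1.11 followed those of the smooth muscle genes. Lower than in the other strains were Hhip, an inhibitor of hedgehog ligands, at -0.38, -1.03, -0.64, -0.74 and -0.25 (-0.54 between families, SE 0.156), Ccnq, Gm19345, Gm8350 and AI506816, the last with -0.34 (SE 0.0964). Hhip read 39.7, 39.7, 36.2, 46.7 and 48.1 in fluoxetine arrays, against 51.8, 81.4, 56.5, 78.1 and 57.1 in water arrays, with no overlap between the groups. The difference between families was -0.81 (SE 0.184) for Gm19345 and -0.57 (SE 0.153) for Gm8350, both at low intensity.

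The size of the response, the median absolute difference over genes, was 0.0875 in FVB/NJ, 0.0803 in SWR/J, 0.1 in SJL/J, 0.0872 in NOD/LtJ and 0.0749 in NOR/LtJ. It averaged 0.086 in the Swiss-derived strains and 0.103 in the others, whose range was 0.0712 to 0.181 (difference -0.0168; exact permutation over 142506 arrangements of strains, two-sided p = 0.18). The 5 strains lay within a narrow band, and the largest responses of the panel were all in other strains.

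**Figure D5:**
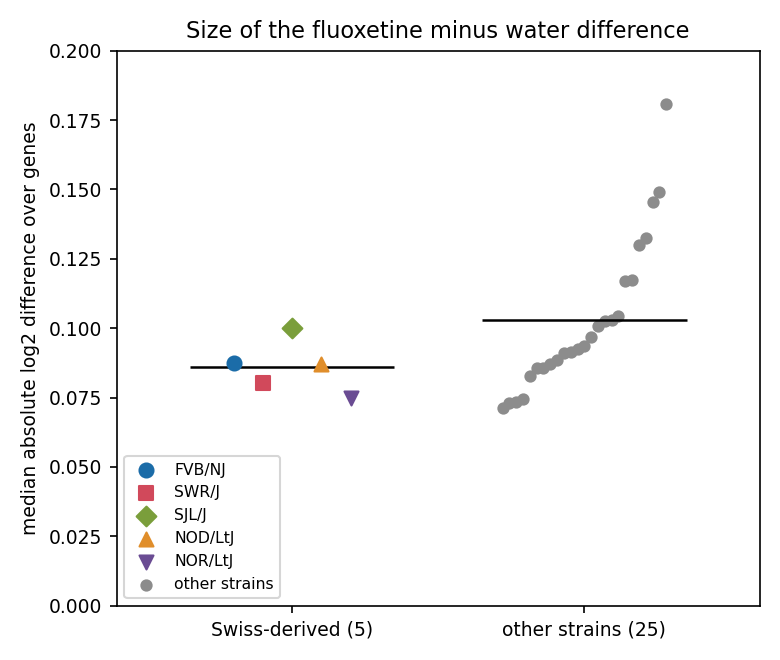
Median absolute log2 difference between the fluoxetine and water array over 11886 genes, 1 point per strain, Swiss-derived strains left and other strains right in order of size; bars are the means of 0.086 and 0.103. The 5 Swiss-derived strains lie between 0.0749 in NOR/LtJ and 0.1 in SJL/J.

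The related strains NOD/LtJ and NOR/LtJ were set against FVB/NJ, SJL/J and SWR/J, 2 strains against 3. Here too 0 of 11886 genes (0%) passed, the lowest limma adjusted p was 1, and 444 genes had an unadjusted p under 0.05. Slc2a5, a fructose transporter of microglia, read 14.3, 32.9, 8.49, 17.7 and 10.9 in fluoxetine arrays and 8.45, 22.2, 7.17, 32.4 and 22.2 in water arrays. It was lower with fluoxetine in NOD/LtJ and NOR/LtJ and higher in the other 3, a difference of -1.47 (SE 0.166), at low intensities. Slc17a6, the vesicular glutamate transporter of subcortical and some cortical neurons, read 361, 541, 457, 624 and 558 with fluoxetine, against 480.4, 711, 553, 568 and 469 with water, a difference of 0.55 (SE 0.0873) between NOD/LtJ with NOR/LtJ and the other 3. The 8 measured thalamus markers had list medians of -0.091, -0.33, -0.083, 0.11 and 0 in the same order. Of the 8 markers 7 had a negative mean, and the part of thalamic tissue in the Slc17a6 value was not tested. Slc7a11, the cystine-glutamate exchanger, went the same way as Slc17a6, at -0.20, -0.38, -0.36, 0.36 and 0.30, and Dcaf17, C730049O14Rik and Pgap3 by 0.89, 0.76 and 0.60. Another probe set of Dcaf17, about as bright, differed by -0.22, 0.073, 0.35, -0.029 and 0.82. Lower in NOD/LtJ and NOR/LtJ were Dis3, a nuclease of the RNA exosome (-0.58, SE 0.0741), Myh7 (-0.57), Pappa2 (-0.51) and E330020D12Rik (-0.63), the last of which was well above the floor in these strains only. When the spread of all 30 strains was used, 1 gene passed, Itga8 at 1.27 (SE 0.217; limma adjusted p = 0.0252), with 233, 351, 137, 209 and 194 in fluoxetine arrays and 267, 296, 158, 111 and 67.6 in water arrays. Itga8 was higher with fluoxetine in NOD/LtJ and NOR/LtJ, as Acta2, Tagln and Myh11 were, and the part of smooth muscle in this value was not tested.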

How the data were processed

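Cortex RNA was measured on Affymetrix arrays, 1 per strain and treatment. The deposited values are linear intensities per probe set made with GCRMA by the authors, per the submitters' processing notes, with no version given in the sources used here. The method models background from the probe letters, sets arrays to one distribution and combines probes, so low values are compressed, and 28.5% to 30.1% of probe sets per array lay within 0.01 log2 of the floor at 4.21. No scan or hybridisation batch could be entered, because none is named in the labels. Array number and background limit the precision.

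Intensities were taken to log2. Of 45101 probe sets 34945 had 1 gene name in the platform annotation, 932 several, 9160 none, and 64 were controls; the probe set with the highest mean stood for each of 18193 genes. Of 18194 Entrez numbers 18032 matched RefSeq's mouse gene table and 0 symbols changed. A gene was tested if log2 was at least 4 in at least 6 of 60 arrays, which left 11886. Within-strain differences were fitted with limma 3.58.1 in R 4.3.3 (lmFit, eBayes, Benjamini-Hochberg at 0.05, two-sided): the 5 strains alone, 5 against 25, and 2 against 3. P-values measure the spread between strains, which mixes strain, pool and technical differences, and single values were tested by exact permutation of strains. On simulated data 75 of 100 genes changed by 0.5 and 97 of 100 changed by 1 were recovered for the 5 strains. These counts were 80 and 99 for 5 against 25, and 2 and 60 for 2 against 3. The simulated differences were independent normal values with each gene's spread over the 30 strains, and both sizes were planted together. Measured differences are not independent between genes, so the counts do not give the share recovered for a single changed gene. Strain paired the arrays, from the labels: deviations from the group means correlated at 0.724 to 0.818 within strains, and 5 of 5 fluoxetine arrays fitted their own strain best.

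The members, the 43 gene lists and the tests were chosen with earlier results of these data known, among them a lower level of cholesterol synthesis genes over all 30 strains, and 2 more lists were added after these differences were seen. Family membership came from textbook genealogy. Named genes were the 10 of smallest p in each direction among genes of one sign in all 5 strains with a mean log2 of at least 6, since none passed; the 5 of smallest p in each direction for both other comparisons; 4 in each direction within a strain; 3 per list; the 3 with the widest range; and a fixed set. All measured cholesterol synthesis genes were given, and Itga8 where a comparison turned on it, and further list members (such as Hyou1, Calr, Atf6, Rgs5, Pdgfrb, B2m and Fasn) were chosen after their values were seen. Promoters are from RefSeq's GRCm38.p6 table.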

Additional observations from a re-analysis of the deposited data

Results flagged for a closer look

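In 128 sets of 5 strain values (named genes and list medians), 3 held a strain far from the other 4, where chance flags about 1 in 20 such sets. Insig1 differed by -0.50 in NOD/LtJ, while the other 4 strains lay between -0.28 and -0.23. The median of the neurotrophin and growth factor list was 0.14 in SJL/J, against -0.0028 to 0.022 in the other 4 strains. The median of the hippocampus list was 0.10 in SJL/J, over 5 measured genes, against -0.027 to 0.0004 in the other 4.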

How the results depend on the processing

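Counts of called genes were 0 in the Swiss-derived response and against the other strains under every alternative run: other filters, a pseudocount of 32, the mean of probe sets, quantile normalization, an intensity trend with a robust prior, omission of C57BLKS/J and of each Swiss-derived strain. Without the strain as a block the paired fits gave 0 as well. The count for NOD/LtJ and NOR/LtJ was 1 with the spread of 30 strains and 0 otherwise. With a filter at log2 6, genes past 2-fold numbered 5 in FVB/NJ, 32 in SWR/J, 29 in SJL/J and 16 in NOR/LtJ, fewer by construction. The cholesterol list median ran from -0.15 to -0.099 without 1 strain each, with 11 to 12 genes lower in all strains kept. That asks one sign of fewer strains, and the share of all genes was not computed for it. The list median was -0.091 with the mean of probe sets (12 genes) and -0.12 with quantile normalization (9 genes). These settings were all added after the values were known. Leaving out 1 strain kept the direction of 395 of 415 values over 83 named results. The 12 that turned lay near 0, and their ranges were -0.095 to 0.14 for Htr1b, -0.097 to 0.0016 for Htr2c, -0.062 to 0.045 for Htr3a, -0.017 to 0.059 for S100a10, -0.0054 to 0.043 for Ntrk2, -0.041 to 0.074 for Vgf, -0.20 to 0.14 for Fos, -0.016 to 0.14 for Egr1, -0.083 to 0.078 for Per1, -0.059 to 0.043 for Mvk, -0.029 to 0.023 for Tm7sf2, -0.011 to 0.021 for Scap. The mean of probe sets turned 2 of 70: Per2 (0.0065) and Gnb4 (0.062); the cause was not tested. Values at the floor have no order and dim ones are compressed, which limits what Eln, H2-Aa and Slc2a5 can show.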
